A study of Mus musculus with 2 samples.

Results

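The complement genes were 9 of the 32285 gene rows of the deposited count matrices. They were chosen by gene symbol, and earlier results of these data were known when they were chosen. They were C1qa, C1qb and C1qc, which encode the chains of C1q, the complement components C3, Cfb and Cfp, the receptor genes C3ar1 and C5ar1, and the inhibitor gene Serping1. They were followed through gated cell classes of 2 single-cell RNA-seq libraries, 1 from PTIR1-expressing and 1 from mock CT26 tumours grown in BALB/c mice. CT26 is a mouse colon carcinoma line and BALB/c is an inbred strain. PTIR1 is named in the series title as a suppressor of the immunoproteasome, and its own level was not analysed here. Both libraries are labelled as tumour-infiltrating lymphocytes, but macrophage-like cells were the most numerous gated class in each. The age of the mice, the number of mice behind each library, and how PTIR1 was expressed are not given in the sources used here.

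Complement is a cascade of plasma and tissue proteins that marks targets for uptake and releases small inflammatory peptides. C1q recognises antibody-coated or damaged surfaces and starts the classical pathway, C3 is the point where all pathways meet, and factor B (Cfb) and properdin (Cfp) drive the alternative pathway that amplifies C3 cleavage. The released peptides act through the receptors encoded by C3ar1 and C5ar1, and C1 inhibitor, encoded by Serping1, blocks the proteases that are bound to C1q. Most circulating complement is made in the liver, whereas C1q and properdin are made largely by myeloid cells, and fibroblasts are known to make several components.

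After filtering, 7567 PTIR1 cells (median 7016 unique molecular identifiers, UMIs) and 9328 mock cells (median 2947.5 UMIs) remained, and 30 cell barcodes were present in both libraries. Cells were placed in classes by lineage markers that held no complement gene, and cells with too few or mixed markers were left out. The classes came from 2 sets of markers, the first and the second gate, described below, so a cell could be in more than 1 class. In each library 11 classes rested on at least 3 markers present in at least 10% of their cells. The macrophage-like class held 2098 PTIR1 and 3085 mock cells, at a median of 12466 and 12454 UMIs. The monocyte-like class held 374 PTIR1 and 388 mock cells, the neutrophil-like class 98 and 70, and the fibroblast-like class 491 and 22. A further gate, on Krt18, Tm4sf1 and other epithelial genes, held 39 PTIR1 and 82 mock cells and is called by those genes because only 2 of its 6 fixed markers reached 10% of the mock cells. Levels are UMIs of the gene per 1000000 UMIs of all genes in a class and library (CPM). Each UMI counts 1 captured 3' end and is not divided by gene length, so levels are compared here between classes and libraries and not between genes. With 1 library a group no test between the groups was possible. The 95% intervals are exact and cover counting error only, and a gene was called higher or lower when it differed by at least 1.5-fold with at least 50 UMIs over both libraries.

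The 9 genes differed in the classes that carried them. C1qa, C1qb and C1qc were highest in macrophage-like cells, where the summed C1q level was 776 CPM (766 to 786) in PTIR1 and 1312 CPM (1301 to 1323) in mock. C5ar1 was highest in neutrophil-like cells, at 424 CPM in PTIR1 and 424 CPM in mock. Cfp, C3ar1 and Cfb were highest in macrophage-like and monocyte-like cells, and Cfp was also high in conventional dendritic cell-like cells. Serping1 was highest in fibroblast-like cells, and C3 was found in both the myeloid classes and fibroblast-like cells. Macrophage-like cells were 27.7% of the PTIR1 and 33.1% of the mock cells kept, and held 74.3% of the C1qa UMIs of the PTIR1 library and 86.2% of those of the mock library. They held 4.10% of the Serping1 UMIs in PTIR1 and 2.11% in mock.

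**Figure D1:**
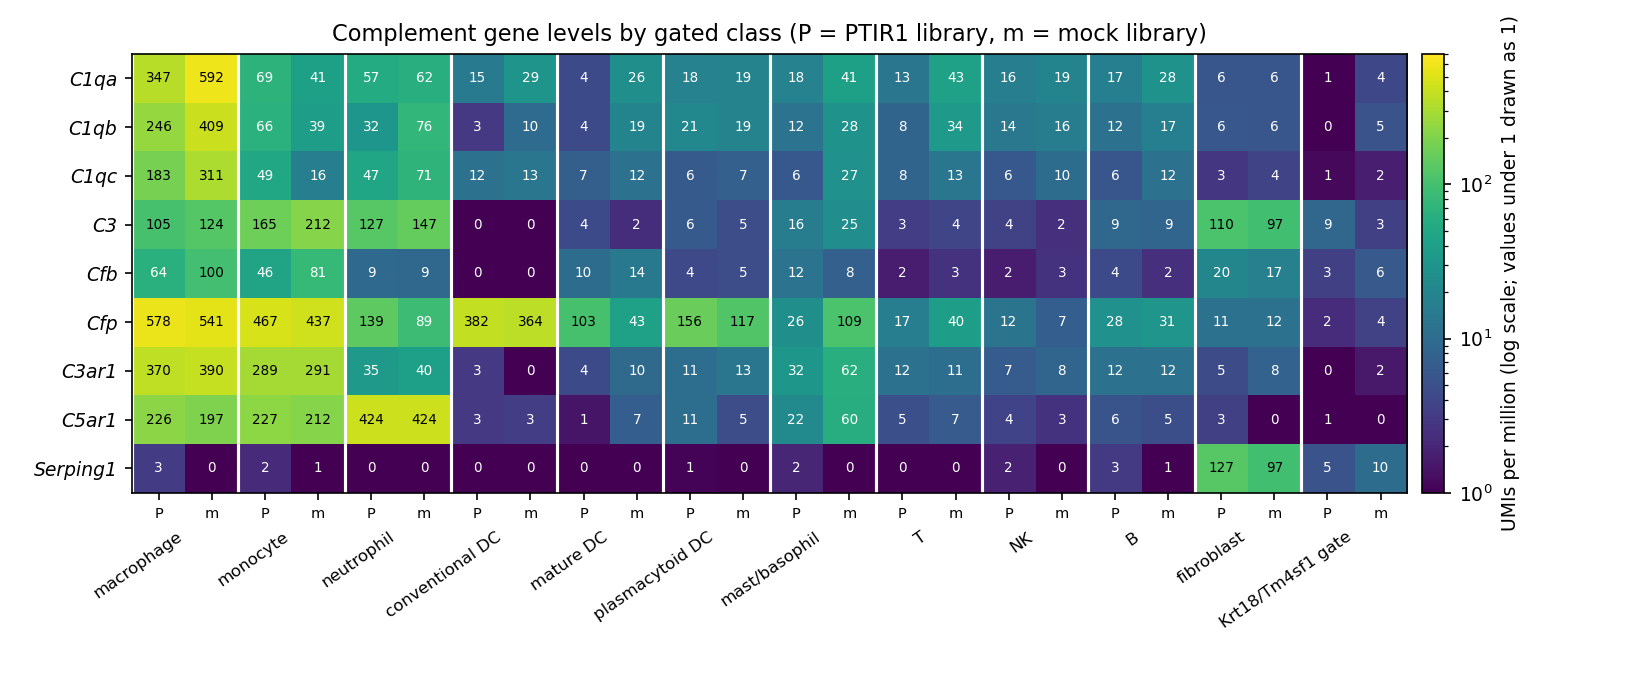
Level of each of the 9 genes (rows) in CPM, printed in each square and coloured on a log scale, in 12 gated classes (columns), with the PTIR1 library (P) left of the mock library (m) in each pair. C1q chains are brightest in macrophage-like cells, C5ar1 in neutrophil-like cells (424 in both libraries) and Serping1 in fibroblast-like cells (127 in PTIR1, 96.8 in mock).

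The C1q genes lie side by side on the minus strand of chromosome 4 (GRCm38, GENCODE vM21), within 18.7 kb. C1qb spans 136880129 to 136886187, C1qc 136889804 to 136893065 and C1qa 136895917 to 136898803, so that 3616 bases separate C1qb from C1qc and 2851 separate C1qc from C1qa. RefSeq promoter windows (GRCm38.p6, 250 bases before to 50 after the gene start) were at hand for 6 of the 9 genes, namely C1qb, C1qc, C3, C3ar1, C5ar1 and Cfp. They are shown for C1qb (chr4:136886151-136886450) and C1qc (chr4:136892865-136893164), which moved together in the comparison below, 5' to 3' on the minus strand, with each match to GAGGAA in capitals. GAGGAA is a core bound by ETS factors such as the myeloid factor PU.1, and was searched on both strands, so TTCCTC in capitals is the same motif on the opposite strand.
C1qb: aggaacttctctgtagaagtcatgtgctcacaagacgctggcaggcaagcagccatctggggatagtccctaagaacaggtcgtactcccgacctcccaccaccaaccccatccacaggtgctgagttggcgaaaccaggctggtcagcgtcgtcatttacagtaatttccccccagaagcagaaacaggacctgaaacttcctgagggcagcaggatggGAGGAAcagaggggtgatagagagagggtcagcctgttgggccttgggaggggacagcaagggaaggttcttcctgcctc
C1qc: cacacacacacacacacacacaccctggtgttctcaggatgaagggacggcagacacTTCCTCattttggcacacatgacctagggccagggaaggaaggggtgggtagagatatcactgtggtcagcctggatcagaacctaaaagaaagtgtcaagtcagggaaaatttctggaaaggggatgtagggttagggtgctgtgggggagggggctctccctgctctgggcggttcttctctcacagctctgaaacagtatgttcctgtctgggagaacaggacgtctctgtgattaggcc
The C1qb window held 1 match, at position -30 from the annotated start, and the C1qc window 1 match, at position -193. Of the 6 windows, 3 held the motif (C1qb, C1qc and Cfp), against 28.3% of the 32851 windows in the table. The core of the interferon-stimulated response element (GAAA, NN, GAAA) was in 0 of the 6 windows (3.44% of all windows), and the gamma-activated site TTCNNNGAA in 0 of the 6 (8.30% of all). These are letter matches in a short window and say nothing of binding.

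C1q RNA was concentrated in a small minority of macrophage-like cells in both libraries. At least 1 C1q UMI was found in 33.6% of PTIR1 and 41.2% of mock macrophage-like cells, and the median cell had 0. The 10% of cells with most C1q UMIs held 97.2% of all C1q UMIs in PTIR1 and 97.5% in mock, and 50% of the C1q UMIs lay in 33 PTIR1 cells and 50 mock cells. The highest cell had 254 C1q UMIs per 10000 in PTIR1 and 275 in mock. The 3 chains kept almost the same proportions: C1qa made up 44.7% (44.1 to 45.4), C1qb 31.7% and C1qc 23.6% of the C1q UMIs in PTIR1, and 45.1%, 31.2% and 23.7% in mock. The other genes were spread over more cells. For Cfb, 50% of the UMIs lay in 104 PTIR1 and 155 mock cells, for C3 in 175 and 264, for C5ar1 in 324 and 443, for C3ar1 in 347 and 512, and for Cfp in 382 and 508. Since so few cells carry the C1q level of a class, its counting intervals are narrower than the variation between cells would give.

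**Figure D2:**
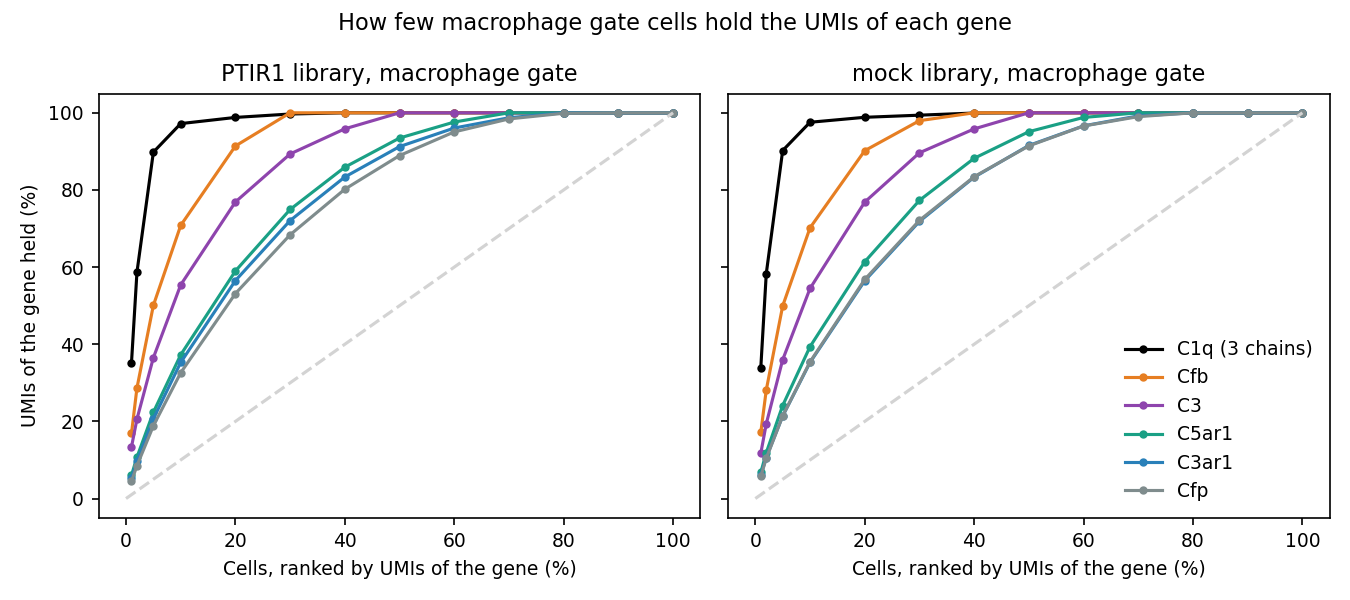
Cumulative share of the UMIs of C1q (3 chains summed), Cfb, C3, C5ar1, C3ar1 and Cfp (vertical axis, %) held by macrophage-like cells ranked from most to fewest UMIs of that gene (horizontal axis, %), for the PTIR1 library on the left and the mock library on the right. The dashed line is an even spread. The C1q curve reaches 97.2% (PTIR1) and 97.5% (mock) at the first 10% of cells, while Cfp reaches 32.6% and 35.4%.

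All 3 C1q chains were lower in PTIR1 than in mock macrophage-like cells, by nearly the same ratio. C1qa had 10617 UMIs (347 CPM) in PTIR1 and 25235 (592 CPM) in mock, a ratio of 0.586 (0.573 to 0.599). C1qb had 7525 UMIs (246 CPM) in PTIR1 and 17441 (409 CPM) in mock, a ratio of 0.601 (0.585 to 0.617). C1qc had 5593 UMIs (183 CPM) in PTIR1 and 13230 (311 CPM) in mock, a ratio of 0.589 (0.570 to 0.607). With Cfb, described below, 4 of the 9 genes were called lower in this class, where 2.92% of the 12101 genes measured were called lower, and 1 (Serping1) was called higher, against 7.42% of all genes. The median log2 ratio was -0.24 over the 9 genes and -0.00252 over all genes measured. In the same cells the macrophage genes Pf4, Ms4a7, Trem2 and Mrc1 summed to 4073 CPM in PTIR1 and 3162 CPM in mock, a ratio of 1.29. That ratio was 0.994 in cells without Arg1 and 0.987 in cells with over 10 Arg1 UMIs per 10000. Between these ranges, with some Arg1 but no more than 10 UMIs per 10000, it was 1.23 (1.20 to 1.25). In cells with over 10 C1q UMIs per 10000 it was 1.65 (1.61 to 1.68). The neutrophil genes S100a8, S100a9 and G0s2 summed to 721 CPM in PTIR1 and 315 CPM in mock, a ratio of 2.29, and the part of these genes in the C1q difference was not tested. The summed C1q ratio of 0.591 was 0.649 with each cell weighing the same, and C1qa was then at 0.669, short of a call. With each cell thinned to 1000 UMIs C1qb was at 0.716, also short of a call.

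**Figure D3:**
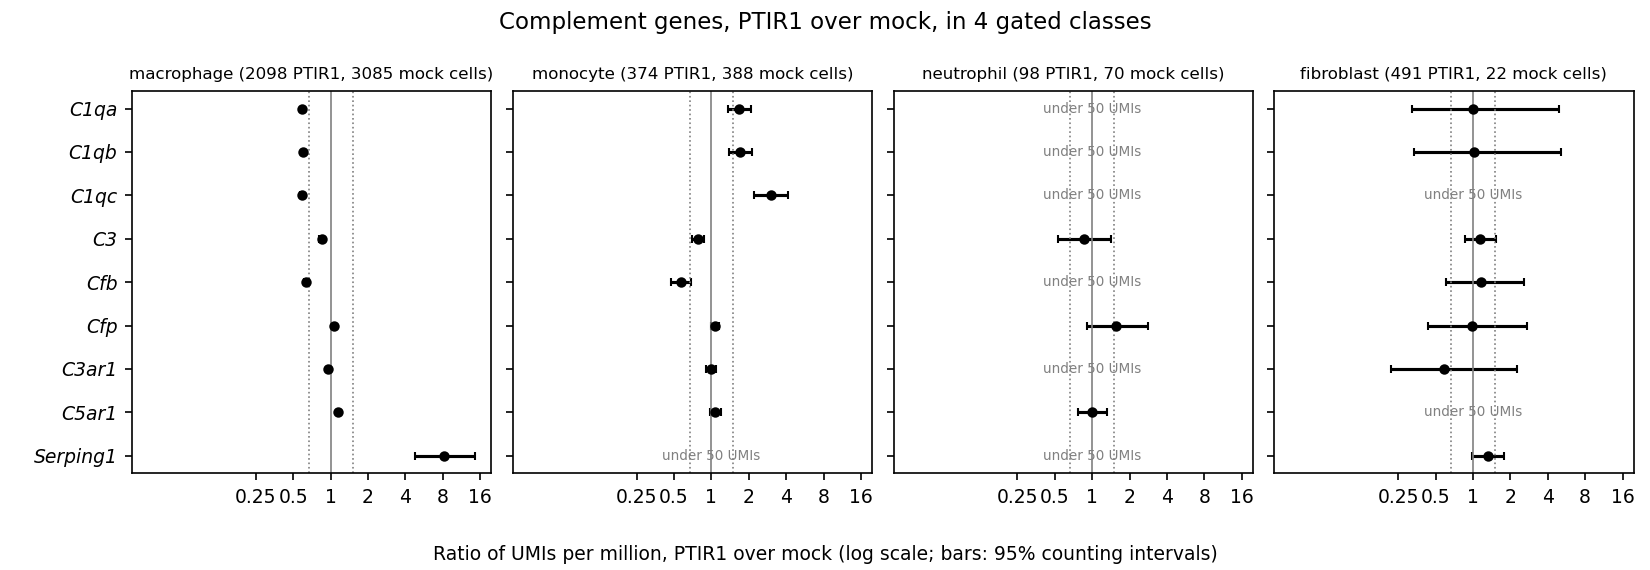
Ratio of CPM, PTIR1 over mock (log scale), for the 9 genes in macrophage-like, monocyte-like, neutrophil-like and fibroblast-like cells, with bars for 95% counting intervals and dotted lines at 1.5-fold either way. In macrophage-like cells the 3 C1q chains and Cfb lie left of the lower dotted line and Serping1, at 8.11, lies right of the upper one, while in monocyte-like cells the C1q chains lie on the other side, between 1.68 and 2.99.

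Cells with over 10 C1q UMIs per 10000 were 8.96% (7.77 to 10.3) of PTIR1 macrophage-like cells and 11.5% (10.4 to 12.7) of mock ones. With cells thinned to 1000 UMIs, all 3 chains were detected in 3.68% (2.90 to 4.60) of PTIR1 and 5.51% (4.69 to 6.42) of mock cells, and no chain in 86.8% and 84.2%. Cells with under 1000 UMIs, 86 in PTIR1 and 288 in mock, were left out of these shares. The limit of 10 was set on the C1q UMIs themselves after the data were seen, and 133 PTIR1 and 233 mock cells lay between 5 and 20, so this is a range of a level and not a cell type. In the C1q-high range these neutrophil genes summed to 894 CPM in PTIR1 and 141 CPM in mock, a ratio of 6.36.

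C1q differed between cells with much and with little Arg1, the arginase gene of alternatively activated macrophages, and was highest at intermediate Arg1 in both libraries. In macrophage-like cells with over 10 Arg1 UMIs per 10000, C1q was at 510 CPM in PTIR1 and 624 CPM in mock, a ratio of 0.817. In cells with less Arg1 but not 0, C1q was at 1186 CPM in PTIR1 and 1983 CPM in mock (ratio 0.598), and in cells with 0 Arg1 UMIs at 902 CPM in PTIR1 and 1441 CPM in mock (ratio 0.626). Within each library C1q was thus lower in the Arg1-high range than in the range without Arg1, at 0.565 of its level in PTIR1 and 0.433 in mock. The Arg1-high range held 50.3% of PTIR1 and 34.5% of mock macrophage-like cells. With the 3 Arg1 ranges weighing the same in both libraries the C1q ratio was 0.642. Between 5 and 20 Arg1 UMIs per 10000, near the limit, lay 463 PTIR1 and 571 mock cells.

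**Figure D4:**
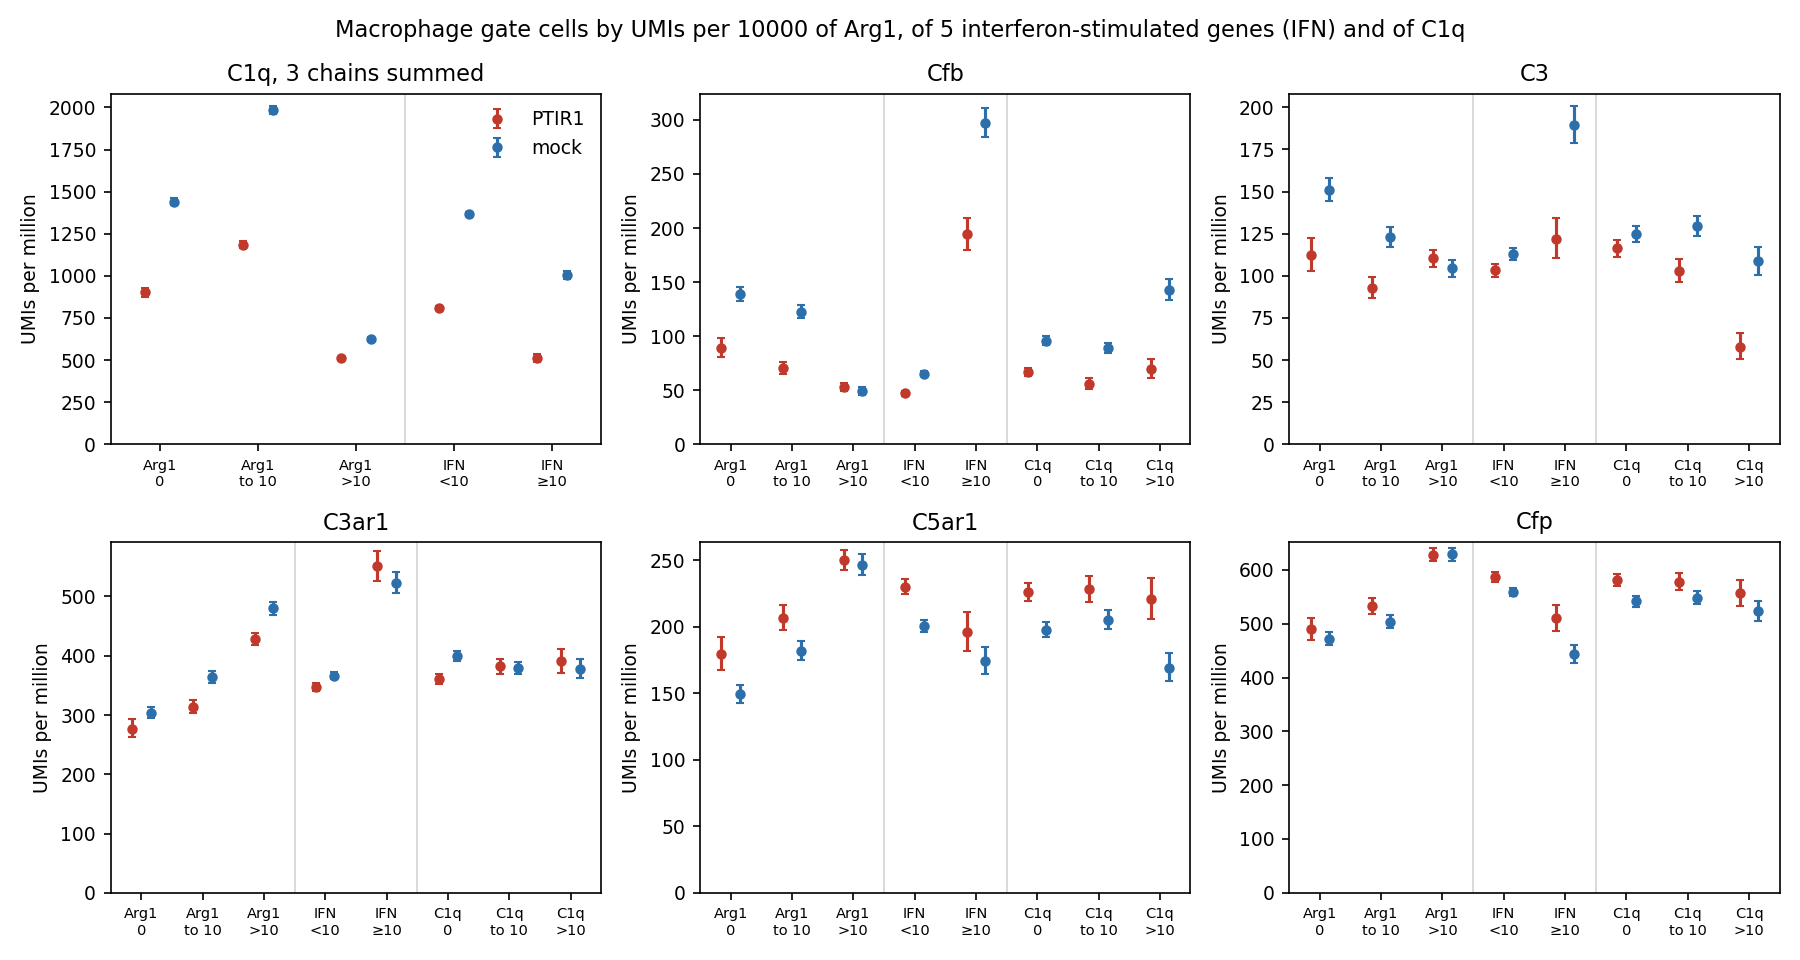
Level in CPM (vertical axis, from 0) of C1q (3 chains summed), Cfb, C3, C3ar1, C5ar1 and Cfp in macrophage-like cells grouped by UMIs per 10000 of Arg1, of 5 interferon-stimulated genes (IFN) and of C1q, with PTIR1 in red left of mock in blue and bars for 95% counting intervals. C1q is lower in PTIR1 in every Arg1 and IFN range, Cfb is highest at 10 or more IFN UMIs (194 in PTIR1, 297 in mock), and C3ar1 and C5ar1 are higher where Arg1 is high.

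C3, the central component, differed by less than 1.5-fold in macrophage-like cells, at 105 CPM in PTIR1 and 124 CPM in mock (ratio 0.848, 0.812 to 0.886). In the C1q-high range it was at 57.9 CPM in PTIR1 and 109 CPM in mock, a ratio of 0.533 (0.454 to 0.623), whereas in cells without C1q it was at 116 CPM in PTIR1 and 125 CPM in mock. In the interferon-high range described below it was at 122 CPM in PTIR1 and 189.6 CPM in mock, against 103 and 113 CPM in the other cells. In PTIR1 the C1q-high cells thus had 0.498 of the C3 level of cells without C1q, and in mock 0.869. C3 was at 165 CPM in PTIR1 and 212 CPM in mock monocyte-like cells, and at 127 and 147 CPM in neutrophil-like cells, on 40 and 33 UMIs. In fibroblast-like cells it was at 110 CPM in PTIR1 (1279 UMIs) and 96.8 CPM in mock (50 UMIs), a ratio of 1.14 (0.859 to 1.54). In T, NK and B cell-like cells C3 stood between 3.30 and 8.81 CPM in PTIR1 and between 2.40 and 8.55 CPM in mock, and no C3 UMI was seen in the 18 PTIR1 and 14 mock conventional dendritic cell-like cells, which were too few to compare and allow up to 8.95 CPM in PTIR1 and 9.83 CPM in mock (3 counts per library).

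Cfb, the protease subunit of the alternative pathway convertase, was lower in PTIR1 macrophage-like cells, at 63.8 CPM against 99.9 CPM in mock (1953 and 4256 UMIs, ratio 0.639, 0.605 to 0.674). It followed the interferon-stimulated genes Rsad2, Ifit1, Ifit2, Ifit3 and Isg15. In cells with at least 10 of their UMIs per 10000, Cfb was at 194 CPM in PTIR1 and 297 CPM in mock, and in the other cells at 47.0 CPM in PTIR1 and 65.3 CPM in mock. The step between these ranges was 4.14-fold (3.76 to 4.54) in PTIR1 and 4.55-fold (4.28 to 4.84) in mock. Summed over the class, these genes were at 657 CPM in PTIR1 and 973 CPM in mock, and the interferon gamma response genes Gbp2, Gbp4, Iigp1, Irf1, Cxcl9 and Ciita at 344 and 1025 CPM, and their part in the Cfb difference was not tested. In the Arg1 ranges, the Cfb ratio was 1.07 in the Arg1-high range, 0.574 (0.523 to 0.628) in the range with less Arg1 and 0.644 in the range without. The Cfb call was lost, at 0.707, with each cell weighing the same, at 0.684 with the Arg1 ranges weighing the same and at 0.693 with the second gate. In monocyte-like cells Cfb was at 46.0 CPM in PTIR1 and 80.6 CPM in mock, a ratio of 0.571 (0.471 to 0.691), and it was 1 of 8 measured genes called lower in a class where 4.95% of all genes were. In fibroblast-like cells it was at 20.3 CPM in PTIR1 and 17.4 CPM in mock, on only 9 mock UMIs.

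Cfp encodes properdin, which stabilises the alternative pathway convertase. Its promoter (chrX:20931506-20931805, minus strand, same marking) is shown because it held 2 of the matches to GAGGAA, both on the opposite strand and 6 and 22 bases past the annotated start.
Cfp: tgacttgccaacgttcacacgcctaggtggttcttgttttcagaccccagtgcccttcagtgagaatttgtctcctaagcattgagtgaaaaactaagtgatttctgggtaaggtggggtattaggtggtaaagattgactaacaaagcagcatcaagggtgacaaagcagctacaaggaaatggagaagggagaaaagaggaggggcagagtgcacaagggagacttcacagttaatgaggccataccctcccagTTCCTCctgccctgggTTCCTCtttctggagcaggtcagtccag
Cfp was at 578 CPM in PTIR1 and 541 CPM in mock macrophage-like cells (ratio 1.07, 1.05 to 1.09), and at 467 and 437 CPM in monocyte-like cells. It was also at 382 CPM in PTIR1 and 364 CPM in mock conventional dendritic cell-like cells, on 128 and 111 UMIs. Of these UMIs 50% lay in 2 PTIR1 cells and 3 mock cells. Leaving out the cell with most Cfp UMIs, the levels were 266 CPM in PTIR1 and 277 CPM in mock. Plasmacytoid dendritic cell-like cells had 156 CPM in PTIR1 and 117 CPM in mock, a ratio of 1.33 (1.04 to 1.70), the 1 member measured and not called in a class where 4.72% of genes were called lower and 3.94% higher. In mature dendritic cell-like cells Cfp was at 103 CPM in PTIR1 and 42.9 CPM in mock, a ratio of 2.40 (1.41 to 4.28), with 7.94% of all genes called higher and 7.27% lower there. That ratio was 0.988 when another lineage was allowed at most 1/5 of the marker UMIs, and 50% of the UMIs lay in 2 PTIR1 cells and 1 mock cell. Neutrophil-like cells had 44 UMIs in PTIR1 and 20 in mock (139 and 89.2 CPM), a ratio of 1.56 (0.901 to 2.80), with 10.3% of all genes called higher and 10.7% lower. With the 1/5 limit that ratio was 0.798.

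The receptor genes differed little between the libraries in the classes where they were high. C3ar1, the receptor for C3a, was at 370 CPM in PTIR1 and 390 CPM in mock macrophage-like cells (ratio 0.950, 0.928 to 0.973), and at 289 and 291 CPM in monocyte-like cells (ratio 0.992, 0.910 to 1.08). C5ar1, the receptor for C5a, was at 226 CPM in PTIR1 and 197 CPM in mock macrophage-like cells (ratio 1.15, 1.11 to 1.19) and at 227 and 212 CPM in monocyte-like cells (ratio 1.07, 0.971 to 1.19). Neutrophil-like cells had 134 C5ar1 UMIs in PTIR1 and 95 in mock, a ratio of 1.0 (0.764 to 1.32), while C3ar1 was at 35 CPM in PTIR1 and 40 CPM in mock there. Both receptor genes were higher where Arg1 was high, the reverse of C1q. In the Arg1-high range over the range without Arg1, C3ar1 was 1.55-fold in PTIR1 and 1.58-fold in mock, and C5ar1 1.39-fold and 1.65-fold. With interferon-stimulated genes they parted: C3ar1 was 1.59-fold in PTIR1 and 1.43-fold in mock in the interferon-high range over the rest, and C5ar1 0.852-fold and 0.870-fold. C3ar1 and Cfp were at almost the same level in cells with and without C1q, with ratios of the C1q-high range over the range without C1q of 1.08 and 0.957 in PTIR1 and 0.945 and 0.966 in mock.

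Serping1 was highest in fibroblast-like cells. Fibroblast-like cells had 1474 UMIs (127 CPM, 121 to 134) in PTIR1 and 50 UMIs (96.8 CPM, 71.9 to 128) in mock, a ratio of 1.31 (0.990 to 1.78). UMIs were found in 233 of 491 PTIR1 and 11 of 22 mock fibroblast-like cells. The Krt18 and Tm4sf1 gate had 14 UMIs (5.34 CPM) in PTIR1 and 59 (10.2 CPM) in mock, a ratio of 0.526 (0.271 to 0.953), the 1 member measured there, in a gate where 8.91% of all genes were called lower and 4.67% higher. With each cell thinned to 1000 UMIs that ratio was 2.16. Neutrophil-like cells had 0 UMIs in both libraries, which allows up to 9.49 CPM in PTIR1 and 13.4 CPM in mock (3 counts per library). The call of Serping1 in macrophage-like cells, 99 UMIs in PTIR1 and 17 in mock (ratio 8.11, 4.82 to 14.5), rested on few cells: 50 of 2098 PTIR1 and 15 of 3085 mock cells had any, and 3 PTIR1 cells held 32 of the UMIs. The fibroblast genes Col1a1, Col3a1, Sparc and Mmp2 summed to 15.4 CPM in PTIR1 and 6.03 CPM in mock macrophage-like cells. In the 1300 PTIR1 and 2710 mock cells with no UMI of a fibroblast gene, Serping1 had 10 UMIs in PTIR1 and 10 in mock, a ratio of 1.99 (0.744 to 5.33). For each 1000 UMIs of those 4 fibroblast genes there were 210 Serping1 UMIs in PTIR1 macrophage-like cells and 66.1 in mock ones, and 185 and 186 in fibroblast-like cells. The summed C1q ratio was 0.586 in the same cells without a fibroblast UMI.

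In monocyte-like cells the C1q chains were higher in PTIR1, opposite to macrophage-like cells, but on a few cells. These classes came from different gates, so a cell could be in both, and shared cells were not counted. C1qa was at 69.0 CPM in PTIR1 and 41.1 CPM in mock (ratio 1.68, 1.36 to 2.08), C1qb at 65.9 and 38.5 CPM (ratio 1.71) and C1qc at 49.1 and 16.4 CPM (ratio 2.99). With Cfb, 4 of the 8 genes measured were called in this class, 3 of them higher, where 4.85% of all genes were called higher. Of the 768 C1q UMIs in PTIR1, 50% lay in 3 cells and 160 in 1 cell, and of the 304 in mock 50% lay in 11 cells. With each cell weighing the same the C1q ratio was 0.877, so the direction depended on the setting. With the gate that also used Ly6c2, Plac8 and Ccr2 it was 0.781. That gate held a different mixture of cells, 1099 in PTIR1 and 1468 in mock, with Gzma and Gzmb among its leading genes. A C1qa UMI was found in 19.0% of PTIR1 and 19.1% of mock monocyte-like cells.

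C1q was lower in all other classes than in macrophage-like cells. Leaving out the cell with most C1q UMIs, mock had 79.6 CPM in monocyte-like and 167 CPM in neutrophil-like cells. In PTIR1 the same levels were 148 and 69.7 CPM, so the order of these classes differed between the libraries. In T, NK and B cell-like cells it stood between 3.83% and 4.68% of the macrophage-like level in PTIR1 and between 3.44% and 6.89% in mock, while the 4 macrophage genes named above stood between 2.01% and 5.15% in PTIR1 and between 2.04% and 3.73% in mock. At 1000 UMIs per cell, C1qa was detected in 2.39% of PTIR1 and 3.58% of mock B cell-like cells, against 9.49% and 10.8% of macrophage-like cells. The part of free RNA in the lymphoid values was not tested. Calls in these classes were C1qa, C1qb and Cfp lower in T cell-like cells (3 of 3 measured, with 10.6% of all genes lower and 6.26% higher), C1qa lower in B cell-like cells (1 of 4, with 5.62% of all genes lower and 6.16% higher), and in NK cell-like cells C1qc lower (1 of 5, 3.0%) and Cfp higher (1 of 5, 1.85%). The T cell-like calls rested on 8, 5 and 10 UMIs in PTIR1 and 65, 52 and 60 in mock, and 29 of the 60 Cfp UMIs lay in 1 mock cell. In mast cell or basophil-like cells all 4 measured genes were called lower, C1qa at 0.441, C3ar1 at 0.517, C5ar1 at 0.372 and Cfp at 0.241, on 9 to 16 PTIR1 UMIs each and in a class where 16.0% of all genes were called lower and 3.70% higher. The macrophage genes were at 232 CPM in PTIR1 and 410.5 CPM in mock mast cell or basophil-like cells, and their part in those differences was not tested. Neutrophil-like cells had C1q at 17.5% of the macrophage-like level in PTIR1 (43 UMIs, 50% of them in 1 cell) and 16.0% in mock (47 UMIs), above the 9.63% and 9.17% of the macrophage genes. In fibroblast-like cells 1 of the 7 measured genes was called, C3ar1, lower on 53 UMIs in PTIR1 and 4 in mock (ratio 0.590, 0.217 to 2.24), where 11.1% of all genes were called lower and 16.9% higher.

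Of 44 other complement pathway genes, 19 were measured in macrophage-like cells, 1 lower, 5 higher and 13 neither, where 2.92% of all genes were called lower and 7.42% higher. The highest were the complement receptor 3 chains Itgam, at 980 CPM in PTIR1 and 920 CPM in mock (ratio 1.07), and Itgb2, at 365 and 448 CPM (ratio 0.814), and Cd93, at 223 and 229 CPM (ratio 0.974). C4b, which encodes the classical pathway component C4, was lower, with 217 UMIs in PTIR1 and 714 in mock (ratio 0.423, 0.362 to 0.493). Those higher were C1s1, a protease of the C1 complex (204 UMIs in PTIR1 and 40 in mock, ratio 7.10), Clu, the terminal pathway inhibitor clusterin (89 and 33 UMIs, ratio 3.75), the ficolin gene Fcna (245 and 132 UMIs, ratio 2.58), Cd59a, a membrane inhibitor of the terminal pathway (143 and 108 UMIs, ratio 1.84), and the receptor gene Cr2 (30 and 26 UMIs, ratio 1.61). In cells without a fibroblast UMI the ratios were 3.60 for C1s1, 2.56 for Clu, 2.16 for Fcna, 1.86 for Cd59a, 0.829 for Cr2 and 0.380 for C4b. In fibroblast-like cells 14 of the 44 were measured, 4 higher and 0 lower, in a class of 22 mock cells where 16.9% of all genes were called higher and 11.1% lower. The highest there were C1s1, at 246 CPM in PTIR1 and 260 CPM in mock, Clu, at 193 and 126 CPM (ratio 1.53), and C1ra, the other C1 protease, at 141 and 139 CPM. Among the others called higher were C1s2 (ratio 2.07, 0.877 to 6.45) and the lectin pathway protease gene Masp1 (1.94, 1.12 to 3.66), on 5 and 13 mock UMIs. In neutrophil-like cells the highest were Itgam (551 CPM in PTIR1 and 468 CPM in mock), Itgb2 (218 and 236 CPM) and Cd93 (85.4 and 84.7 CPM). In the Krt18 and Tm4sf1 gate they were C1qbp (268 CPM in PTIR1 and 250 CPM in mock), Cr1l (34.7 and 33.8 CPM) and Clu (33.6 and 18.8 CPM).

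The genes whose levels ran most like those of each member were sought by Pearson's r of log2(CPM + 1), among 11688 genes with at least 200 UMIs. They were compared over 22 points, 11 classes in each library, all taken from the second gate, described below. These were the classes with at least 20 cells in each library. They left out conventional dendritic cell-like cells and took in the Krt18 and Tm4sf1 gate. The points share libraries and depth, so r is a description. For C1qa, C1qb and C1qc the nearest were the other 2 chains (r from 0.959 to 0.981) and then Folr2, a folate receptor gene of tissue macrophages (r = 0.906, 0.882 and 0.897). C3ar1 ran with Ccl9, Ms4a6c and F10 (r from 0.969 to 0.974), and C5ar1 with Ccl6, Clec4e and Clec4d (0.971 to 0.979). Cfp ran with Sirpa, Cd68 and Pira2 (0.936 to 0.951), of which Cd68 was a gate marker. C3 ran with Tgm2, Inhba and Hp (0.904 to 0.914), Cfb with Pid1, Stom and Dock4 (0.922 to 0.934), and Serping1 with Pcdhb21, Scara5 and Pcdhb17 (0.945 to 0.952). With the first gate (9 classes, without fibroblast-like cells) the C1q chains were again nearest to each other. Next were Ccl12 for C1qa, Dhx58 for C1qb and Cd300c2 for C1qc, and Folr2 was not among the 10 nearest. C3 then ran with Klra2, Lamp2 and Prdx5, and Cfb with Capza2, Tcirg1 and Ifi207, so the genes named depended on the gate.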

How the data were processed

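The deposited matrices hold UMI counts per gene and cell barcode, 1 library each of PTIR1-expressing and mock tumours, made with version 3.1 of the 3' kit per the labels' protocols, with Cell Ranger 5.0.0, Seurat 3.2.3 and mm10 named in the submitters' processing notes. The libraries held 98540561 UMIs in 9006 PTIR1 cells and 95166611 in 10833 mock cells. Barcodes were kept from 200 detected genes upward, if mitochondrial genes gave no more than 10% of their UMIs. A cell was gated to the lineage with most marker UMIs (at least 3, from at least 2 markers), with every other lineage at no more than 1/3 of them. Cells above that limit were left out as mixed, 1667 in PTIR1 and 1610 in mock, which is also how doublets were treated. Those with fewer marker UMIs or markers, 1365 in PTIR1 and 2051 in mock, were ungated. UMIs of Plac8, Ly6c2 and Ccr2 in other lineages spoiled that gate for monocyte, conventional and plasmacytoid dendritic, NK, fibroblast and Krt18 and Tm4sf1 cells. For these a second gate, without those genes and with Ms4a4c, Col1a2, Col6a3, Msln and Klk10 added, was set after the data were seen. The second gate left 1261 PTIR1 and 1053 mock cells mixed, and 1559 and 2982 ungated. Classes from different gates could share cells, and such cells were not counted. Endothelial markers gated 0 cells. Classes with at least 20 cells in each library were compared, by CPM with exact Poisson, conditional binomial and Clopper-Pearson intervals. All members were named in every compared class. Other pathway genes were named when among the 3 highest in a class or past 1.5-fold. 1 of those is counted but not reported here. The code was tested on simulated data. The members and lists were chosen with earlier results of these data known, and C1q ranges after the data were seen. The alternatives were other cell filters and gate limits, doublet scores from Scrublet in scanpy 1.11.5, equal weights per cell, thinning, rescaling to a median ratio of 1, leaving out barcodes shared by the libraries or cells with a fibroblast UMI, and equal weights per Arg1 range. Exact intervals came from scipy 1.17.1, tables from pandas 2.3.3 and figures from matplotlib 3.10.9.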

Additional observations from a re-analysis of the deposited data

Results flagged for a closer look

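Several members were past 1.5-fold in opposite directions in a pair of classes, with counting intervals that did not include 1. With 1 library a group the difference between classes was not tested. C1qa was higher in PTIR1 monocyte-like cells (ratio 1.68) and lower in macrophage-like (0.586), mast cell or basophil-like (0.441), T cell-like (0.308) and B cell-like cells (0.607). C1qb was higher in monocyte-like cells (1.71) and lower in macrophage-like (0.601) and T cell-like cells (0.241). C1qc was higher in monocyte-like cells (2.99) and lower in macrophage-like (0.589) and NK cell-like cells (0.595). Cfp was higher in mature dendritic cell-like (2.40) and NK cell-like cells (1.76) and lower in mast cell or basophil-like (0.241) and T cell-like cells (0.417). Serping1 was higher in macrophage-like cells (8.11) and lower in the Krt18 and Tm4sf1 gate (0.526). In macrophage-like cells without a fibroblast UMI the Serping1 ratio was 1.99 (0.744 to 5.33). With each cell thinned to 1000 UMIs the ratio in the Krt18 and Tm4sf1 gate was 2.16. The monocyte-like C1q chains, T cell-like C1qa, C1qb and Cfp, and mature dendritic cell-like Cfp also reversed direction under other settings, given below.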

How the results depend on the processing

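The summed C1q ratio in macrophage-like cells (0.591) stayed below 1 under every setting run. It moved outside its counting interval to 0.555 with other lineages at no more than 1/5, 0.642 without the highest doublet scores, 0.649 with each cell weighing the same, 0.627 thinned to 1000 UMIs and 0.642 with Arg1 ranges weighing the same. Of 4 members called lower there, 2 (C1qb and C1qc) were called with each cell weighing the same. The C1q level itself was 567 CPM in PTIR1 and 904 CPM in mock when thinned, 743 and 1339 CPM with the 1/5 limit, and 745 and 1278 CPM with the second gate. In all, 129 of 130 ratios in macrophage-like cells and 588 of 648 in all classes kept their direction. The exception in macrophage-like cells was C3, at 1.01 when thinned. Of the 60 that changed, 38 were of values not called, and the other 22 are given here.

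Called ratios that reversed were, thinned to 1000 UMIs, monocyte-like C1qa 0.690, C1qb 0.990 and summed C1q 0.863, T cell-like Cfp 7.89 and Serping1 in the Krt18 and Tm4sf1 gate 2.16. With each cell weighing the same they were monocyte-like C1qa 0.886, C1qb 0.719 and summed C1q 0.877. With the other of the 2 gates they were monocyte-like C1qa 0.737, C1qb 0.789, C1qc 0.853 and summed C1q 0.781, T cell-like C1qa 1.27, C1qb 1.02 and summed C1q 1.26, and B cell-like summed C1q 1.0. With other lineages at up to 1/2 they were T cell-like C1qa 1.64, C1qb 1.20 and summed C1q 1.40 and fibroblast-like C3ar1 1.23. With the 1/5 limit they were neutrophil-like Cfp 0.798 and mature dendritic cell-like Cfp 0.988. The cause was not tested. No paired analysis was possible because each group had 1 library. Low UMI counts limit the neutrophil-like, mature and plasmacytoid dendritic, mast cell or basophil-like, T cell-like and B cell-like classes and the Krt18 and Tm4sf1 gate. In each of these at least 5 of the 9 members had under 50 UMIs. The mock fibroblast-like class is limited by its 22 cells.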
